A study of Mus musculus with 4 samples.

Results

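Ngfr, Gap43, Ncam1, L1cam, S100b, Cadm1, Cadm2, Gdnf, Artn and Gfra1 are 10 genes used as markers of immature or denervated Schwann cells, or encoding growth factors and receptors of that state. They were found by exact symbol among the 35604 gene rows of each of 2 deposited tables, with 1 row per gene. All 10 had a usable estimate in culture and 9 in tumours, where the row of L1cam carries the status FAIL. Genes were compared where 1 of the 2 libraries of a table reached at least 1 FPKM (fragments mapped to a gene, scaled to its length and to the size of the library). That left 9 members in culture and 8 in tumours, since S100b stayed below this level in all 4 libraries.

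The study asked by RNA-seq what NXD30001, described in the series title as an HSP90 inhibitor, does to Nf2-deficient Schwann cells. All 4 libraries come from ESC-FC1801, embryonic mouse Schwann cells of the FVB/N strain with Nf2 Flox/Flox alleles, in which deletion (NF2-/-) was induced in vitro with Ad-Cre, an adenovirus carrying Cre recombinase. There was no library with intact Nf2, and both the controls and the treated samples carry the deletion. Of the 4 groups of 1 library each, culture supplied DMSO for 24 hours and 1 µM NXD30001 for 24 hours, and tumour-bearing mice supplied vehicle or NXD30001 at 100 mg/kg, each 3 times a week for 4 weeks. The culture medium was serum-free N2 with neuregulin and forskolin, agents that drive Schwann cell growth and cAMP signalling. Whether the cells are 1 clone, the strain and age of the host mice and the number of tumours behind a library are not given in the sources used here. A tumour library also holds host stroma, vessels and immune cells, and in such bulk samples fewer cells of a type and less RNA per cell cannot be told apart.

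Immature Schwann cells, which have not yet wrapped axons, carry the low-affinity neurotrophin receptor p75 (Ngfr), the adhesion molecules NCAM and L1, and GAP-43 on or under their membrane. Myelinating cells lose most of these and take them up again after nerve injury, when repair Schwann cells also secrete GDNF, artemin and BDNF for regenerating axons. GDNF and artemin bind GFR-alpha co-receptors anchored in the membrane by lipid, which signal through the RET kinase or, for GDNF, also through NCAM. The CADM (SynCAM) proteins are immunoglobulin-domain adhesion molecules that hold glia to axons.

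The promoters of 7 members were matched in RefSeq (build GRCm38.p6, windows from 250 bases before to 50 bases after an annotated start, 300 bases each); Gap43, Ncam1 and Cadm1 were not matched. Shown are those of the GDNF family ligands Gdnf, which has 2 annotated starts, and Artn, because these ligands went opposite ways in culture, of Cadm2, the member at least 2-fold higher in both treated libraries, and of Ngfr, the member past 2-fold in opposite directions in culture and tumours. Each is written 5′ to 3′ on the strand of its gene. Capitals mark matches to the motifs searched on both strands: AP-1 (TGACTCA and its reverse complement TGAGTCA), SOX (AACAAT or ACAAAG), E-box (CACGTG or CAGCTG) and, added after the data had been seen, the heat shock element (GAANNTTC or TTCNNGAA).
Gdnf, first start, chr15:7809798-7810097, plus strand: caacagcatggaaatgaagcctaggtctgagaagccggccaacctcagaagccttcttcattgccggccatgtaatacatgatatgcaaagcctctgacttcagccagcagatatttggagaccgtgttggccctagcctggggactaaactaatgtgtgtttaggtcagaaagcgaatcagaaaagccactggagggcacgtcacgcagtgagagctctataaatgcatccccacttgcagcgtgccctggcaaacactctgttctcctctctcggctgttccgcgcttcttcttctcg
Gdnf, second start, chr15:7813477-7813776, plus strand: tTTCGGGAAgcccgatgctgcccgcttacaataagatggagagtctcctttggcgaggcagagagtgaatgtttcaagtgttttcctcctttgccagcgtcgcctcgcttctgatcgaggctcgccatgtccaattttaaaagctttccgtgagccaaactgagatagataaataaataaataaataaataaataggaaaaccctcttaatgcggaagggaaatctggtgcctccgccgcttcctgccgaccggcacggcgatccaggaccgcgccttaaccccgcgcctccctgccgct
Artn, chr4:117929714-117930013, minus strand: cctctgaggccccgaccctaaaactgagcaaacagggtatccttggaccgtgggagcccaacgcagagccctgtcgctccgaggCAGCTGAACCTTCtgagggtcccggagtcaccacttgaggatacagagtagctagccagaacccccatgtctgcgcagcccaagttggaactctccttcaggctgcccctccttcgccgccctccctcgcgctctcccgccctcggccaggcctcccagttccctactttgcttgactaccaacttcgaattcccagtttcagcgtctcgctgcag
Cadm2, chr16:67620859-67621158, minus strand: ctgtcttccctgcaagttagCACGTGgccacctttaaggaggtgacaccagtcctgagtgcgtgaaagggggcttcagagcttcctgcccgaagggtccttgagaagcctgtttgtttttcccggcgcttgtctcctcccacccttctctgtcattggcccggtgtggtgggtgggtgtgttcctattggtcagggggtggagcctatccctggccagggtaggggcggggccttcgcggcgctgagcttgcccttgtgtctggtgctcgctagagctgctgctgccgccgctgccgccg
Ngfr, chr11:95587649-95587948, minus strand: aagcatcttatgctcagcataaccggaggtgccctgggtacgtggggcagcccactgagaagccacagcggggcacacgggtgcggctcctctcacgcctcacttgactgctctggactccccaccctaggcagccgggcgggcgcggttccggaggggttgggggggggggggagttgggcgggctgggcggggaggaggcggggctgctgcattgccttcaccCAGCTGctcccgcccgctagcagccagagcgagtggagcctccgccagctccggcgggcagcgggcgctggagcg

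The window at the second Gdnf start held a heat shock element match, and that at the first start held none of the motifs. The Artn window held the E-box CAGCTG from -166 to -161, counted from the start site at 0, and a heat shock element match from -161 to -154 that shares 1 base with it. Cadm2 had the E-box CACGTG from -230 to -225 and Ngfr the E-box CAGCTG from -25 to -20. Gfra1 had an E-box CAGCTG from -90 to -85, while L1cam and S100b had no match, and no member window held AP-1 or SOX letters. Of all 32851 RefSeq windows of this length, 15.1% hold a heat shock element match, 22.2% an E-box, 27.0% a SOX match and 5.20% an AP-1 match. These matches are letters in a window and say nothing on binding.

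In culture the members divided. Of the 9 compared, Gdnf and Cadm2 were at least 2-fold higher with NXD30001, on the log2(FPKM + 1) scale used for every difference here, and Ngfr, Gap43, Ncam1, L1cam and Artn at least 2-fold lower, with Gfra1 and Cadm1 within 2-fold. Over all 12676 genes compared in that table, 12.6% passed 2-fold upwards and 24.8% downwards, so a lower level was common there. The median difference of the members was -1.43 beside -0.25 for all genes. Centred on that median, 17.8% of genes were higher and 18.4% lower, and the members' counts of 2 and 5 did not move. The authors' deposited table called Gdnf and Cadm2 higher and L1cam and Artn lower, where it called 2.75% of compared genes higher and 7.14% lower.

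In tumours most of these genes were higher in the treated library. Ngfr and Cadm2 were so by at least 2-fold, none of the 8 compared was 2-fold lower, and 7 of 8 lay above 0, with Cadm1 just below. Of all 15550 compared genes, 7353 lay above 0, and 7.32% passed 2-fold upwards and 6.93% downwards. The members' median was 0.70 beside -0.03 for all genes. Only Ngfr was called in the authors' deposited table, which called 3.14% of genes higher and 2.45% lower. With 1 library per group there is no replicate error and no test, and higher and lower describe these libraries.

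**Figure D1:**
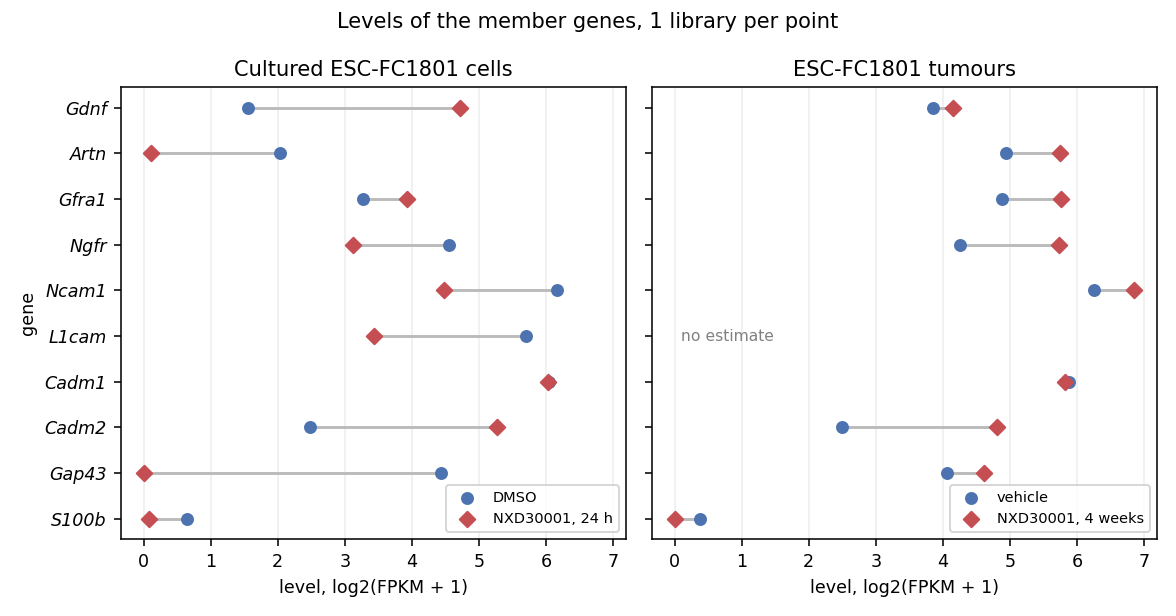
Level of each member on the log2(FPKM + 1) axis in the untreated (circles) and NXD30001 (diamonds) library of culture (left) and tumours (right), 1 library per point, so there are no error bars. In culture Gdnf and Cadm2 lie to the right with treatment and 5 members to the left. In tumours 7 of 8 compared members lie to the right, where 7353 of all 15550 compared genes have a difference above 0. L1cam has no tumour estimate.

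An error can be read only from the authors' model, as their log fold divided by their test statistic, put on the log2 scale. This implied error covers no biological spread and belongs to the ratio without pseudocount. Its median for genes of 10 to 30 FPKM was 0.76 in culture and 0.35 in tumours. The total depth of the libraries is unknown. For 40 culture and 59 tumour genes the implied error is that of 1 fragment in each library, if it is counting error alone. On that assumption, which was not tested, they put the treated library at 1.05 times the untreated depth in culture and 1.19 times in tumours. Nf2 itself was at 15.9 and 12.5 FPKM in culture and 57.2 and 42.8 FPKM in tumours, a whole-gene level that does not show whether the floxed exons are gone.

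Gdnf, the founding ligand of its family and a survival factor for motor and sensory neurons (ENSMUSG00000022144, chromosome 15 from 7761011 to 7787575, mm9 as for all loci of members below), was at 1.95 FPKM in the DMSO culture and 25.4 FPKM in the treated culture. The treated culture was thus 13 times the control without a pseudocount, and the difference on log2(FPKM + 1) was 3.16. The implied error of the ratio without pseudocount was 0.88, and the authors' deposited table gives a q of 0.00126. In tumours Gdnf was at 13.5 FPKM in the vehicle tumour and 16.8 FPKM in the treated tumour, which gives 0.30 on the log2 scale (implied error 0.34). The large difference in culture had no counterpart of that size between the tumours.

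Artn, which encodes artemin, a GDNF family ligand for sensory and sympathetic neurons (ENSMUSG00000028539, chromosome 4 from 117598767 to 117602368), went the other way in culture. It was at 3.10 FPKM in the DMSO culture and 0.0816 FPKM in the treated culture, close to the floor of the table. The difference on log2(FPKM + 1) was -1.92. Without a pseudocount the DMSO level was 37.9 times the treated level. The implied error of 1.18 and the q of 0.000547 in the authors' deposited table belong to that ratio. With a pseudocount of 5 in place of 1 the difference was -0.67, inside 2-fold. In tumours Artn was at 29.6 FPKM in the vehicle tumour and 52.4 FPKM in the treated tumour, which gives 0.81 on the log2 scale (implied error 0.38) and no call. By level within a library Artn was at place 8 of 10 members in the DMSO culture and at place 3 of 9 in the vehicle tumour, where L1cam has no estimate.

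Gfra1, the GDNF co-receptor (ENSMUSG00000025089, chromosome 19 from 58278629 to 58530399), was higher with NXD30001 in both tables, though within 2-fold. It was at 8.62 and 14.2 FPKM in culture, which gives 0.66 on the log2 scale (implied error 0.73). In tumours it was at 28.4 and 53.3 FPKM, which gives 0.89 on the log2 scale (implied error 0.38). Neither was called, and 2 other gene rows carry the same locus.

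The other genes of GDNF signalling were few at measurable level. Ret, the signalling kinase for GFR-alpha receptors, was listed at 0 in both culture libraries and at 0.205 and 0.0977 FPKM in tumours. Gfra3, the preferred artemin receptor, was listed at 0 in culture and in the vehicle tumour and at 0.730 FPKM in the treated tumour. Gfra2, the neurturin receptor, was at 67.9 FPKM in the DMSO culture and 17.7 FPKM in the treated culture, and at 55.3 and 56.1 FPKM in tumours. Gfra4 was at 2.81 and 1.36 FPKM in culture. With Gdnf, Artn and Gfra1 counted, 5 of the 10 listed GDNF family genes were compared in culture (1 at least 2-fold higher, 2 lower, median -0.69) and 4 in tumours (all within 2-fold, median 0.55). Ligands and GFR-alpha co-receptors were thus measured where the RET transcript was at or near 0.

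Ngfr, the p75 receptor for all neurotrophins (ENSMUSG00000000120, chromosome 11 from 95430132 to 95449049), was at 22.5 FPKM in the DMSO culture and 7.68 FPKM in the treated culture. That gives -1.43 on the log2 scale (implied error 0.81), with no call in the authors' deposited table. In tumours it was at 18.1 FPKM in the vehicle tumour and 52.2 FPKM in the treated tumour, 2.89 times as high. The difference on log2(FPKM + 1) was 1.48 (implied error 0.31), with a q of 0.00011 in the authors' deposited table. The treated library was thus the lower one in culture and the higher one in tumours.

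Among the neurotrophin ligands, Bdnf lay on the side of Gdnf in culture. Bdnf, brain-derived neurotrophic factor, was at 0.960 FPKM in the DMSO culture and 30.7 FPKM in the treated culture, a difference of 4.02. It was called higher in the authors' deposited table. In tumours Bdnf was at 4.98 and 6.32 FPKM. Sort1, the sortilin co-receptor that pairs with p75, was at 14.5 and 5.49 FPKM in culture and 5.43 and 9.28 FPKM in tumours, on the same sides as Ngfr. The kinase receptors Ntrk2 and Ntrk3 stayed below 0.5 FPKM in every library. Bex1, an adaptor that binds p75, was listed at 0 in the DMSO culture and at 14.6 FPKM in the treated culture, without a call, and at 0 in both tumours. Of the neurotrophin list without Ngfr, 9 of 16 genes were compared in each table: 5 were at least 2-fold higher and 2 lower in culture (median 1.36), against 2 higher and 1 lower in tumours (median 0.10).

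**Figure D2:**
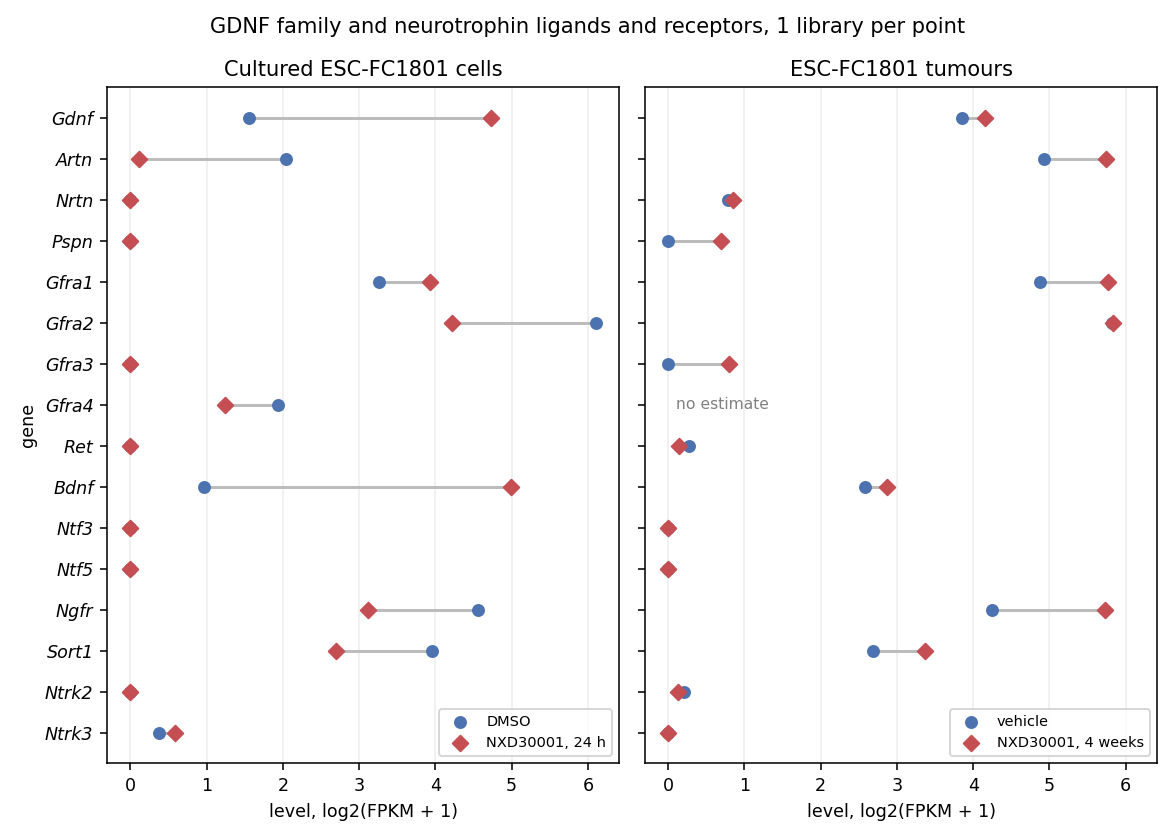
Levels of GDNF family and neurotrophin ligands and receptors on the log2(FPKM + 1) axis, untreated (circles) and NXD30001 (diamonds), 1 library per point. Gdnf and Bdnf stand well to the right in treated culture, at 25.4 and 30.7 FPKM, and Ret, Ntrk2 and Ntrk3 sit at or near 0 in all libraries; Gfra4 has no tumour estimate.

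Among the adhesion molecules, Ncam1 and L1cam were lower in treated culture. Ncam1 (ENSMUSG00000039542, chromosome 9 from 49310257 to 49606834), a homophilic adhesion molecule and co-receptor for GDNF, was at 71.1 FPKM in the DMSO culture and 21.4 FPKM in the treated culture, which gives -1.69 on the log2 scale (implied error 0.67). In tumours it was at 75.3 and 115 FPKM, which gives 0.60 on the log2 scale (implied error 0.24). Neither was called. L1cam (ENSMUSG00000031391, chromosome X from 71099117 to 71167283), which binds axonal L1 as Schwann cells first contact axons, was at 51.1 and 9.83 FPKM in culture, 5.20 times lower with NXD30001. The difference on log2(FPKM + 1) was -2.27 (implied error 0.45), with a q of 1.17e-05 in the authors' deposited table. In tumours all 4 genes placed at the L1cam locus have the status FAIL and a listed 0, which is a failed estimate.

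Relatives of L1 gave values in both systems. Chl1, close homologue of L1, was at 192 and 56.8 FPKM in culture and at 3.58 and 13.8 FPKM in tumours, where it was called higher in the authors' deposited table. Nrcam, another L1 family member, was at 19.2 and 30.5 FPKM in culture and at 8.94 and 30.2 FPKM in tumours, also called higher in tumours only; the difference between the 2 systems was not tested. Ank2, an ankyrin that anchors L1 proteins to the cytoskeleton, was at 33.2 and 30.8 FPKM in culture and 10.4 and 6.49 FPKM in tumours. The polysialyltransferases that modify NCAM were low, with St8sia2 at 0.412 and 0.789 FPKM in culture and 0 in tumours, and St8sia4 at 0 in culture and at 1.53 and 0.688 FPKM in tumours. Of the 14 L1, NCAM and contactin genes listed beside the members, 4 were compared in culture, with none at least 2-fold higher and 1 lower (median -0.20), and 5 in tumours, with 2 higher and none lower (median 0.51).

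Cadm1 and Cadm2, both of the SynCAM family, behaved differently from each other. Cadm1 (ENSMUSG00000032076, chromosome 9 from 47338256 to 47665720) was at 64.8 and 64.3 FPKM in culture and at 58.0 and 55.6 FPKM in tumours, differences of -0.01 and -0.06 with implied errors of 0.46 and 0.20. Its level was nearly equal in the 2 libraries of each table. Cadm2 (ENSMUSG00000064115, chromosome 16 from 66655666 to 67621153) was at 4.56 FPKM in the DMSO culture and 37.7 FPKM in the treated culture, 8.27 times as high. The difference on log2(FPKM + 1) was 2.80 (implied error 0.61), with a q of 4.95e-05 in the authors' deposited table.

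In tumours Cadm2 was at 4.64 and 27.1 FPKM, 5.84 times as high in the treated library and a difference of 2.32. The implied error there was 2.34, far above the tumour median of 0.35 for genes of 10 to 30 FPKM, and the table made no call. Cadm2 was the only member at least 2-fold higher in both tables, a pattern found in 117 of the 11559 genes compared in both (1.01%). The loci of Cadm1, Cadm2, Ncam1 and L1cam are each given for at least 1 more row, and how reads were divided among such rows is not stated in the labels.

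Other SynCAM genes and partners were examined beside them. Cadm4, the main SynCAM of myelinating Schwann cells, was at 5.69 and 13.1 FPKM in culture and at 69.8 and 288 FPKM in tumours, a tumour difference of 2.03 that was called in the authors' deposited table. Cadm3, its axonal partner, was listed at 0 in culture and at 1.84 and 2.21 FPKM in tumours. Epb4.1l3, which encodes the membrane skeleton protein 4.1B that binds CADM tails, was at 176 and 603 FPKM in culture, called higher, and at 44.5 and 41.6 FPKM in tumours. Pvrl3, a nectin, was at 55.9 and 43.2 FPKM in culture and 31.0 and 17.9 FPKM in tumours. Without the members, 7 of 9 listed SynCAM and nectin genes were compared in culture, with 2 at least 2-fold higher and none lower (median 0.21), and 8 in tumours, with 1 higher and none lower (median 0.29).

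Gap43, a growth cone phosphoprotein attached to the inner membrane (ENSMUSG00000047261, chromosome 16 from 42248555 to 42340764), was at 20.6 FPKM in the DMSO culture but listed at 0 in the treated culture. The table gives no finite statistic for it and makes no call. Such a 0 was rare at that level but not unique: of 4804 genes at 20 FPKM or more with DMSO, 106 were listed at 0 in treated culture. In tumours Gap43 was at 15.7 and 23.4 FPKM, which gives 0.55 on the log2 scale (implied error 0.38) and no call.

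Most related growth-associated genes lay within 2-fold. Without Gap43, 9 of 12 were compared in culture, with 1 at least 2-fold higher, 2 lower and a median of -0.29, and 9 in tumours, with 1 higher, 1 lower and a median of 0.03. Stmn1, the microtubule regulator stathmin, was at 201 and 9.47 FPKM in culture and at 73.6 and 74.9 FPKM in tumours. Crmp1, a mediator of growth cone collapse, was at 4.27 and 0.541 FPKM in culture and at 10.8 and 27.0 FPKM in tumours, on opposite sides. Basp1, a membrane protein related in function to GAP-43, was listed at 0 in the DMSO culture and at 2.51 FPKM in the treated culture. It was at 41.8 and 15.0 FPKM in tumours. Its differences had signs opposite to those of Gap43 in both systems. Both culture differences rest on a listed 0, however, and the tumour difference of Gap43 was within 2-fold and not called.

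S100b, the calcium-binding protein whose antibody staining is a standard label of Schwann cells (ENSMUSG00000033208, chromosome 10 from 75716598 to 75723904), was close to the floor in every library. It was at 0.563 and 0.0538 FPKM in culture and at 0.305 FPKM in the vehicle tumour but listed at 0 in the treated tumour. These levels were too low for a comparison, and for this member the label of a Schwann marker is not borne out at the RNA level. Other S100 genes reached measurable levels, with 9 of 12 compared in culture and 11 in tumours. S100a16 was at 28.2 and 7.83 FPKM in culture and at 132 and 156 FPKM in tumours. The low genes S100a5 and S100g were listed at 0 in both culture libraries, and in tumours S100a5 was listed at 0 with vehicle and at 2.24 FPKM with NXD30001, and S100g at 1.63 and 10.2 FPKM, neither called. The S100 list had medians of 0.12 in culture and 0.23 in tumours.

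The remaining Schwann cell markers give the state in which these members were measured. Of 8 defining Schwann markers, 7 were compared in each table and Fabp7 was listed at 0 in all 4 libraries. In culture 6 of the 7 lay below 0 in difference, 4 of them past 2-fold, where 7530 of all 12676 compared genes lay below 0. In tumours all 7 lay above 0, 6 of them at least 2-fold. These markers, of which none is a member, were thus higher in the treated tumour alongside Ngfr and Cadm2. Each is also in 1 of the myelin, transcription factor or precursor lists that follow.

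Most compared myelin genes were higher in both treated libraries. In culture 12 of 14 were compared, 8 at least 2-fold higher and 2 lower (median 2.41), and in tumours 9, 6 of them at least 2-fold higher and none lower (median 1.22). Prx, periaxin, was at 3.05 and 8.77 FPKM in tumours and at 1.68 and 28.6 FPKM in culture, and Drp2, a periaxin partner, was at 0.883 and 23.0 FPKM in culture. The other immature and precursor genes mostly lay on the side of Ngfr and Ncam1. In culture 13 of 16 were compared, with none at least 2-fold higher and 8 lower (median -1.22), and in tumours 15, with 6 higher and 1 lower (median 0.74).

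Cdh19, a cadherin of Schwann cell precursors, was at 10.6 and 1.04 FPKM in culture and at 4.91 and 25.7 FPKM in tumours. Gfap, the intermediate filament of non-myelinating Schwann cells, was at 0.414 FPKM in the DMSO culture but listed at 0 in the treated culture, and it was at 0.999 and 7.86 FPKM in tumours. Notch1, a receptor that holds Schwann cells immature, was lower in both systems, at 19.1 and 4.46 FPKM and at 66.8 and 31.4 FPKM. Of the lineage transcription factors, Egr2, which drives myelination, was at 12.2 and 0.924 FPKM in culture and 1.23 and 11.4 FPKM in tumours. Its tumour difference of 2.48 had an implied error of 7.20 and no call in the authors' deposited table. Pax3, a factor of immature Schwann cells, was at 7.73 and 39.9 FPKM in culture and 9.43 and 14.4 FPKM in tumours, and Foxd3 was at 3.40 and 2.93 FPKM and at 24.7 and 116 FPKM. Over the 14 transcription factors compared in culture the median was 0.00 and over the 17 in tumours 0.37.

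**Figure D3:**
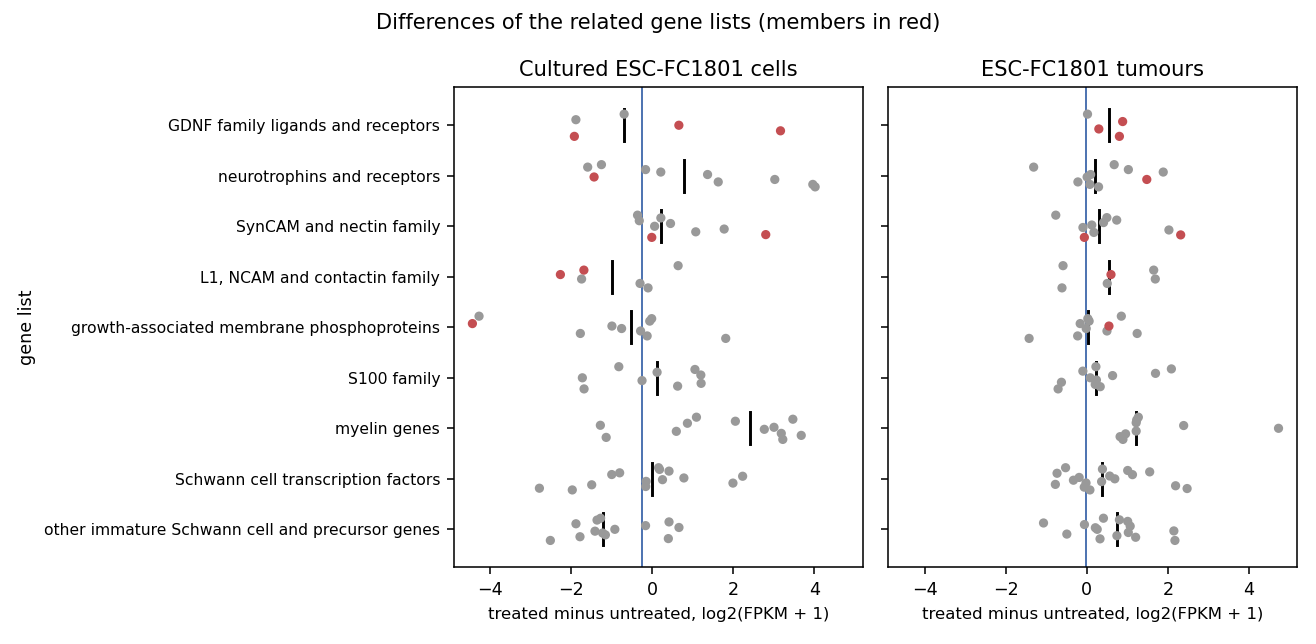
Difference of each compared gene (treated minus untreated, log2(FPKM + 1)) by gene list in culture (left) and tumours (right), with members in red, black ticks at the list medians and the blue line at the median of all compared genes (-0.25 and -0.03); genes listed at 0 in 1 library are included. The median of the other immature Schwann cell list lies left of the line in culture (-1.22) and right of it in tumours (0.74), and that of the myelin list right in both; the L1 list median of -0.99 in culture includes Ncam1 and L1cam and is -0.20 without them.

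Markers of other cells differed between the tumours too. Neuron markers, which matter because neurons express Ngfr, Ncam1, L1cam, Gap43 and the CADM genes, were below 1 FPKM in culture for all 8 with an estimate there. In tumours their summed level was 79.6 and 167 FPKM, carried by Stmn2 (57.9 and 105 FPKM), Nefl (1.70 and 26.8 FPKM), Nefm (8.49 and 25.7 FPKM) and Tubb3, which was lower in the treated tumour (11.4 and 8.82 FPKM), while Syt1, Snap25, Nefh and Elavl4 were listed at 0 in both tumours. Stmn2 is also in the growth-associated list. Endothelial markers summed to 75.0 and 25.5 FPKM, macrophage markers to 1047 and 749 FPKM, fibroblast markers to 4136 and 3375 FPKM and mast cell markers to 12.5 and 52.4 FPKM. Lyz2 alone was at 712 and 558 FPKM (implied error 2.16), though all 8 macrophage markers lay below 0 in difference. The fibroblast list also summed to 1297 and 1137 FPKM in culture, so its sum is not particular to host fibroblasts. In tumours 6 of the 8 fibroblast genes lay below 0, and Col1a1 (1576 and 1155 FPKM) and Col3a1 (1141 and 1063 FPKM) were called lower. The other 2 lay above 0, among them Pdgfrb (20.9 and 45.9 FPKM, called higher). T cell, melanocyte and skeletal muscle markers summed to under 8 FPKM in each tumour. The part of these shifts in the members' tumour differences was not tested.

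Within a library FPKM can be compared between genes, since it is scaled to length. With DMSO the members ran from Ncam1 (71.1 FPKM), Cadm1 and L1cam through Ngfr and Gap43 to Gfra1, Cadm2, Artn, Gdnf and S100b. With NXD30001 in culture the order was Cadm1 (64.3 FPKM), Cadm2, Gdnf, Ncam1, Gfra1, L1cam, Ngfr, Artn, S100b and Gap43. Gdnf thus went from place 9 to place 3 and Cadm2 from place 7 to place 2. In the vehicle tumour the order was Ncam1 (75.3 FPKM), Cadm1, Artn, Gfra1, Ngfr, Gap43, Gdnf, Cadm2 and S100b, and in the treated tumour Ncam1 (115 FPKM), Cadm1, Gfra1, Artn, Ngfr, Cadm2, Gap43, Gdnf and S100b. Cadm1, Gfra1, Artn and Ngfr lay between 52.2 and 55.6 FPKM there, and their order has no error to be read against.

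Position among all compared genes shows the same shifts without a scale. Gdnf had 15.9% of compared genes below it with DMSO and 70.6% with NXD30001, and Cadm2 31.5% and 77.0%. Ncam1 went from 84.3% to 67.5%, L1cam from 79.5% to 52.5% and Ngfr from 64.3% to 47.6%. In tumours Ngfr went from 52.8% to 79.0%, Cadm2 from 24.4% to 64.1% and Artn from 65.7% to 79.1%, whereas Cadm1 stood at 80.8% and 80.3%.

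**Figure D4:**
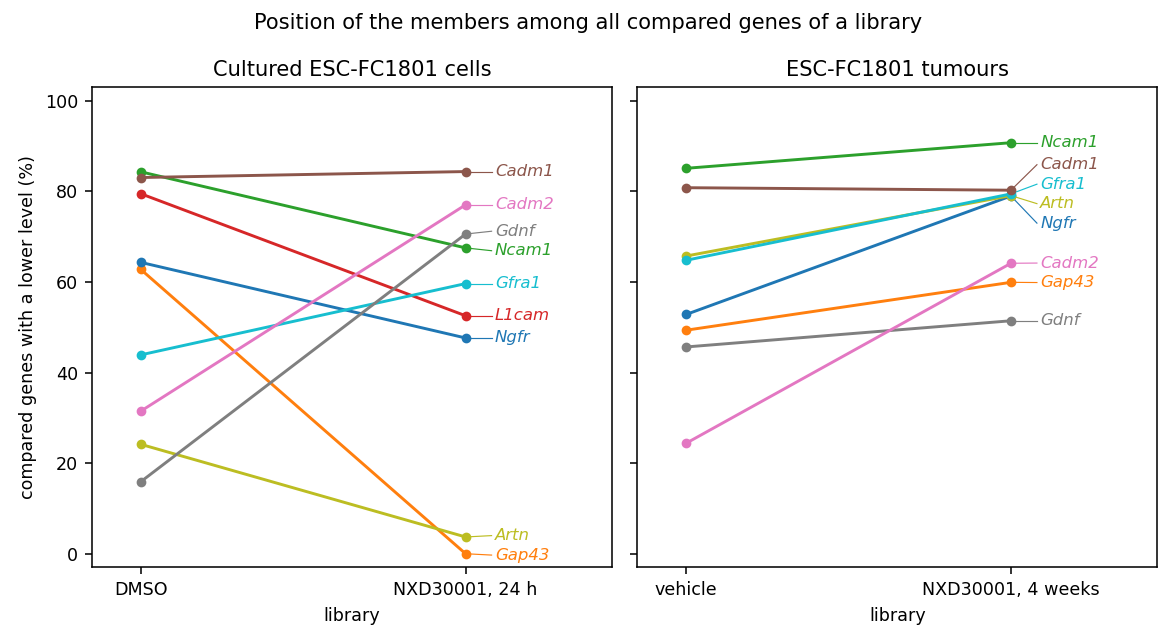
Share of compared genes with a lower level (y axis, percent) for each compared member in the untreated and the treated library (x axis) of culture (left) and tumours (right), 1 library per point. In culture the lines cross, with Gdnf and Cadm2 going up to 70.6% and 77.0% and Gap43 ending at 0, while in tumours every line but that of Cadm1 goes up.

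Set side by side, 4 of the 8 members compared in both tables, Ngfr, Gap43, Ncam1 and Artn, lay below 0 in culture and above 0 in tumours, as did 27.5% of the 11559 genes compared in both. Past 2-fold on both sides this pattern held for Ngfr alone among the members and for 193 of all genes (1.67%). Culture and tumours differ in host, dose, route and time, and the tables were normalized separately, so which of these goes with the opposite directions cannot be told apart.

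**Figure D5:**
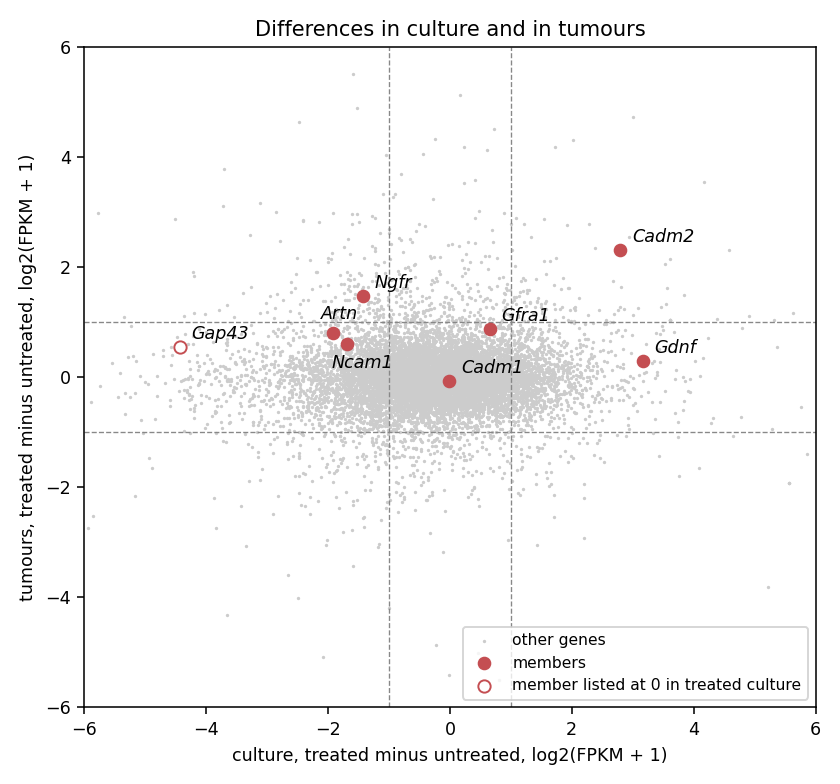
Difference in culture (x axis) against difference in tumours (y axis), both treated minus untreated on log2(FPKM + 1), for the 11559 genes compared in both tables (grey; 80 lie beyond the axes), with the members in red, Gap43, listed at 0 in treated culture, as an open circle, and dashed lines at 2-fold. Ngfr lies in the upper left (-1.43 and 1.48), Cadm2 in the upper right (2.80 and 2.32) and Cadm1 at the centre.

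The genes most like Ncam1, the member with the highest mean level over the 4 libraries (70.6 FPKM), were found by the distance over its 2 differences among 5024 other genes at 5 FPKM or more in all libraries. They were Spry2, an inhibitor of receptor kinase signalling (21.1 and 5.96 FPKM in culture, 44.0 and 68.4 FPKM in tumours, distance 0.03), Inpp5f, a phosphoinositide phosphatase gene (distance 0.09), and Net1, a guanine nucleotide exchange factor gene (distance 0.09). With 2 values per gene, such closeness is a description only.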

How the data were processed

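RNA-seq of 4 libraries (1 per group) was analysed from 2 tables. Per the submitters' processing notes, CASAVA, TopHat 1.2.0, Cufflinks 1.0.2, Cuffdiff and the mouse build mm9 were used; annotation and strandedness were not named in the labels. The authors deposited levels in FPKM, and per the file headers a log fold, a test statistic and a q-value (used as scores of their own comparison of 2 libraries; q reached 2.05, so it is no probability), a p-value (not used) and a ratio or fold of the levels. Called genes all had q under 0.05.

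The statuses FAIL (705 rows of the culture table, 347 of the tumour table) and LOWDATA (61 and 449) were left out. Compared genes had 1 FPKM or more in either library. The difference is log2(FPKM + 1), treated minus untreated, and a 2-fold cut was counted. Locus starts count from 0 in the tables (end minus start equalled the gene length for 10580 loci and length less 1 for 268) and are printed from 1. Counting was tested on simulated data with Python 3.11.15 and pandas 2.3.3. Groups came from the sample titles; the label for sample type calls all 4 cultured cells. No test was possible with 1 library per group.

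The members and gene lists were chosen with earlier results of these data known. Named genes were all members, the 3 compared genes of each of 9 related lists with the largest difference in either table (2 for the GDNF family, where no more were compared), binding partners and the 3 genes nearest to Ncam1. Some genes that this rule names are not reported here. Nf2 and the neuron, macrophage, fibroblast and melanocyte marker genes given by name fall outside this rule and were chosen after their values were seen. Alternatives were pseudocounts of 0.1 and 5, no minimum and a minimum of 5 FPKM, median centring, upper quartile scaling, leaving out rows with a shared locus, summing repeated symbols and a 1.5-fold cut. Promoter windows are RefSeq's on GRCm38.p6 and no coordinate was moved between builds; proteins are not used here.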

Additional observations from a re-analysis of the deposited data

Results flagged for a closer look

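Among the members and the related genes named above, 6 were at least 2-fold different in both tables with opposite signs, and this difference between culture and tumours was not tested, since each group has 1 library. Most of these genes were named for having the largest differences of their lists. Of the 11559 genes compared in both tables, 193 (1.67%) were past 2-fold lower in culture and higher in tumours, and 82 (0.709%) the reverse. Ngfr was 2.92 higher in its tumour difference than in its culture difference on the log2 scale (1.48 and -1.43). For Cdh19 the tumour difference exceeded the culture difference by 4.69, for Chl1 by 3.43, for Crmp1 by 3.02 and for Egr2 by 5.26. The tumour part of the Egr2 value, 2.48, had an implied error of 7.20 and was not called in the authors' deposited table. Basp1 went the reverse way, with a tumour minus culture value of -3.23, and it was listed at 0 with DMSO, so its culture difference depends on the pseudocount.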

How the results depend on the processing

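In 65 of 66 member values in culture and 60 of 60 in tumours, the direction past 2-fold or the place within 2-fold did not change over the 8 alternatives of scale, filter and scaling. The exception was Artn in culture with a pseudocount of 5 (-0.67). Without rows that share a locus, 4 members were left in each table, and the counts were 1 higher and 3 lower in culture and 1 higher in tumours, because fewer members were compared. The culture count of lower members was 4 with a pseudocount of 5 and with a minimum of 5 FPKM. With a 1.5-fold cut 5 tumour members were higher, and 14.2% and 14.8% of all tumour genes were higher and lower (21.8% and 37.6% in culture). With a pseudocount of 5, 7.16% of culture genes were higher and 13.4% lower, and 2.90% and 2.73% of tumour genes. Upper quartile scaling moved the culture median of all genes from -0.25 to -0.09 and no member count. No paired analysis was possible because each group has 1 library. Levels under 1 FPKM, such as those of S100b and of Artn in treated culture, are too low to read.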

Other observations

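Tyrp1, a pigment enzyme gene of melanocytes, which share the neural crest origin of Schwann cells, was at 0.0577 FPKM in the DMSO culture and 9.69 FPKM in the treated culture in culture, a difference of 3.34 called in the authors' deposited table. It was noticed after its values were seen. In both culture libraries Mlana, Tyr and Dct, other genes of that lineage, were listed at 0, and Mitf, the master factor of melanocytes, was at 0.191 and 0.966 FPKM. In tumours Tyrp1 was listed at 0 in both libraries and Mitf was at 7.37 and 3.46 FPKM.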
